A study of Mus musculus with 24 samples.

Results

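The growth hormone and reproductive axes were followed here through 10 genes of the mouse hypothalamus: the hypothalamic peptide genes Ghrh, Sst, Gnrh1, Kiss1, Tac2 and Pdyn and the receptor genes Ghr, Esr1, Pgr and Prlr. They were taken by symbol from a table of 55471 genes. The rule uses no measured value, but the list was drawn up with earlier results of these data known. All 10 were found in the table, and 9 of them passed the expression filter that 18992 genes passed in all. Kiss1 did not pass it, with 0 counts in every library. The libraries came from hypothalami of 18-week-old male C57BL6/J mice on chow, with 6 mice in each of 4 groups. ExpOF mice received a liquid diet enriched with sucrose through an intragastric catheter, above their energy needs, and Control mice received sterile water by the same route. The groups named ExpOF d14 and Control d14 were sampled at the end of the infusion, on day 14. The groups named ExpOF d14+3 and Control d14+3 were sampled on day 17, after both had received sterile water for 3 days. All mice were wild type and male, and a piece of whole hypothalamus holds many nuclei, so a gene made in few neurons was measured against the RNA of all other cells.

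Growth hormone release from the pituitary is driven by growth hormone-releasing hormone, made from Ghrh in neurons of the arcuate nucleus, and is held back by somatostatin, made from Sst in the periventricular nucleus and in many other brain regions. The growth hormone receptor, encoded by Ghr, carries the hormone's feedback to the brain. Reproduction depends on gonadotropin-releasing hormone from Gnrh1 neurons, whose pulses are set by arcuate neurons that make kisspeptin (Kiss1), neurokinin B (Tac2) and dynorphin (Pdyn). Kisspeptin and neurokinin B stimulate this network and dynorphin restrains it. Sex steroids act back on it through the estrogen receptor alpha (Esr1) and the progesterone receptor (Pgr), and prolactin through its receptor (Prlr).

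The peptides themselves are short stretches inside longer precursors, and their coding sequences are shown because the precursor transcripts are what the counts measure. The stretches below were taken from GENCODE vM21 transcripts, are written 5′ to 3′ in lower case throughout because every base shown codes for the peptide, and encode the last 14 residues of the Sst precursor (somatostatin) and the 10 residues of gonadotropin-releasing hormone, of the short form of kisspeptin and of neurokinin B.
Sst: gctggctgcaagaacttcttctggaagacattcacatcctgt
Gnrh1: cagcactggtcctatgggttgcgccctggg
Kiss1: tacaactggaactccttcggcctgcgctac
Tac2: gacatgcacgacttctttgtgggacttatg

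Upstream of the start site of RefSeq, the members share little of what was searched. The cAMP response element TGACGTCA, which reads the same on both strands, was found within 250 bases before the start in Sst and in no other member with a promoter entry (Gnrh1 has no entry). In the same window 478 of 27025 genes, or 1.77%, hold it. The stretch before the Sst start is shown with the element in capitals, which begins 48 bases before the start site; it lies at chr16:23890845-23890964 on the minus strand of GRCm38.p6 in RefSeq's annotation. The GENCODE vM21 model of Sst begins farther upstream, so that nearly all of the stretch, the element included, lies inside that model. A match of these letters is a description of the promoter and was not related to the counts.
Sst promoter: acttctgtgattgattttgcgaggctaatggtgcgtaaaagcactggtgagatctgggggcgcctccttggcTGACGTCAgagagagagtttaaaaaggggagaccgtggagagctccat

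Over the 24 libraries, between 8928182 and 34848437 counts fell on genes. The study set aside 1 Control d14 mouse for poor RNA quality without naming it, and its mean expression values match the counts when replicate 4 is the one left out. So 23 libraries and 5 Control d14 mice entered the fit. The labels give replicate 4 a RIN (RNA integrity number) of 9.8, which is not low for its group, so its label does not show the quality problem. The RIN of the other mice ran from 8 to 10 in Control d14, from 9.6 to 10 in ExpOF d14, from 7.2 to 9.9 in Control d14+3 and from 8.8 to 10 in ExpOF d14+3. All 10 genes of a list of hypothalamic regulators passed the filter. On d14, 2 of them had higher and 8 lower means in ExpOF mice. The 2 higher ones had an unadjusted p under 0.05 in edgeR's test, against 26.7% of all genes. Sim1 was 1 of these, with a log2 fold change of 0.549 (SE 0.247, adjusted p = 0.166). At d14+3, 5 were higher and 5 lower, 0 of them at an unadjusted p under 0.05. RNA of neighbouring tissue differed between libraries: the summed level of 11 choroid plexus markers ranged from 45.0 to 3122 CPM (counts scaled to a common library size) in Control d14 and from 43.6 to 49.8 in ExpOF d14, and none of the 11 was at 0 in all libraries. It ranged from 46.1 to 74.0 CPM in Control d14+3 and from 43.8 to 1337 in ExpOF d14+3. Of these markers 10 were tested. On d14 all 10 had lower means in ExpOF mice, 7 of them at an unadjusted p under 0.05 in edgeR's test, against 26.7% of all genes. At d14+3, 9 were higher and 1 lower, with 1 at an unadjusted p under 0.05, against 7.11% of all genes. The summed level of 7 cortex and hippocampus markers ranged from 17.2 to 42.8 CPM in Control d14 and from 16.2 to 29.4 in ExpOF d14, and of 7 striatum markers from 155 to 177 and from 152 to 213. That of 8 leptomeninges markers ranged from 331 to 655 CPM in Control d14 and from 258 to 390 in ExpOF d14. All 8 had lower means in ExpOF mice on d14, 5 of them at an unadjusted p under 0.05, against the same 26.7% of all genes. Pituitary RNA was uneven too: 8 anterior pituitary markers summed to between 1.70 and 106 CPM in Control d14 and to between 1.82 and 20.2 in ExpOF d14, against 4.95 CPM or less at d14+3. Most of it was growth hormone itself, with Gh at 25.1 ± 39.7 CPM (SD, n = 5) in Control d14 and 3.22 ± 6.40 (SD, n = 6) in ExpOF d14 (log2 fold change -2.88, SE 1.12, adjusted p = 0.143, edgeR), and Lhb was at 0 in every library. The part of these tissues in the members' differences was not tested.

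Sst was by far the most abundant member. Expressed as CPM per kilobase of exon, which scales for gene length, Sst stood at 152 ± 37.4 (SD, n = 23 libraries), followed by Tac2 at 24.2 ± 4.00 and Pdyn at 21.1 ± 3.46. The length is that of the exons of all annotated transcripts of a gene together. Levels of genes with several transcripts may be understated, so the order of long receptor genes against short peptide genes is approximate. Tac2 lay above Pdyn in 17 of 23 libraries, so the order of these neighbours was not the same in every mouse. Without the scaling for length Pdyn was the higher, with a mean of 60.9 CPM against 33.3 for Tac2. Ghrh followed at 7.45 ± 1.83 and Gnrh1 at 4.98 ± 1.08 CPM per kilobase, with Ghrh above Gnrh1 in 22 of 23 libraries. Among the receptors Pgr had 3.61 ± 0.680, Ghr 2.96 ± 0.63, Prlr 2.65 ± 0.632 and Esr1 1.13 ± 0.204 CPM per kilobase. Ghr lay above Prlr in 14 of 23 libraries. Sst over Tac2, Pdyn over Ghrh and Prlr over Esr1 were the same in all 23. Gnrh1, which is made by few scattered neurons, rested on 22 to 156 counts per library and Ghrh on 46 to 243, against 913 to 5188 for Sst.

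Kiss1 could not be measured with this table. Kiss1 (chr1:133321875-133329722, plus strand) was listed at 0 in all 24 libraries. A count of 0 allows up to 3 counts, or between 0.0861 and 0.336 CPM depending on the library's total, and this covers counting error only. The limit holds for reads assigned to Kiss1, not for its expression: in GENCODE vM21 all 779 of its exon bases are also exons of the predicted gene Gm28040 on the same strand, and 498 of them belong to another entry of the same name. These entries held 0 to 1 and 3 to 22 counts per library. How reads in overlapping genes were assigned is not given in the sources used here. Of the other members only Prlr overlaps another gene, with 203 of its exon bases (1.3%) in Gm21973, which had 0 counts.

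**Figure D1:**
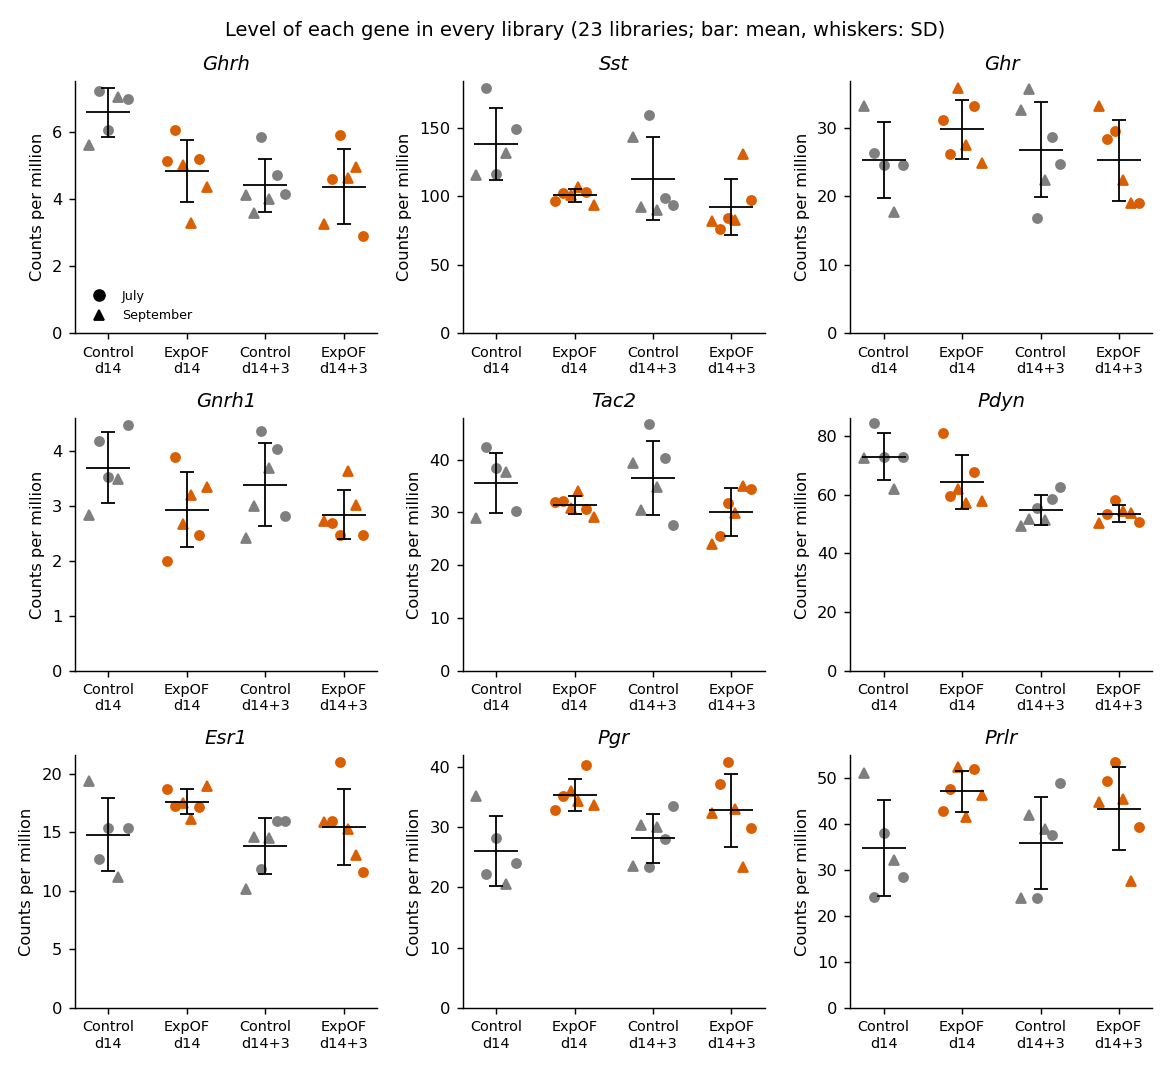
Level of 9 genes in CPM (vertical axes, starting at 0) in each of the 23 libraries, by group (horizontal axes), with circles for mice of the July cohort, triangles for the September cohort, bars for group means and whiskers for the SD. In the Sst panel the 6 ExpOF d14 mice sit between 93.6 and 107 CPM, below the lowest Control d14 mouse at 116; in every other panel the groups of a day overlap.

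At the end of overfeeding the 5 peptide genes had lower means in ExpOF than in Control mice and the 4 receptor genes had higher means. The widest differences were those of Pgr (1.36-fold), Prlr (1.35-fold), Sst (0.728-fold) and Ghrh (0.730-fold). No member passed the adjusted threshold of 0.05 in edgeR's quasi-likelihood test (0 of 9), in a comparison where 1 of 18992 genes, or 0.00527%, passed it. At an unadjusted p under 0.05 the test held 5 of 9 members (Ghrh, Sst, Pdyn, Pgr and Prlr) against 26.7% of all genes, and DESeq2 called 0 of 9 members where it called 0.874% of all genes. In bulk tissue, fewer cells of a type and less RNA per cell cannot be told apart.

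Sst (chr16:23889573-23890958, minus strand) was the member whose groups did not overlap on d14. Its level was 116, 179, 116, 132 and 149 CPM in the 5 Control d14 mice. In ExpOF d14 the lowest value was 93.6, the median 102 and the highest 107 CPM. All 6 ExpOF mice lay below all Control mice, and 2.5% of all genes tested had groups apart in either direction. The fitted log2 fold change was -0.46 (SE 0.15, adjusted p = 0.135), and the exact permutation test on log2 CPM gave p = 0.00216, the smallest value that 6 against 5 mice allow. That p-value follows from the groups not overlapping and, like every exact p-value here, was not adjusted over members or genes. Within the July cohort the fitted difference was -0.56 and within the September cohort -0.30. On d14 the July cohort held 3 ExpOF and 3 Control mice, and the September cohort 3 ExpOF and 2 Control mice. With Control d14 replicate 4 left out, the d14 September values of all members rest on these 2 Control mice, Control d14 replicate 1 among them.

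Ghrh (chr2:157329497-157347506, minus strand) was measured at 5.59, 7.22, 6.04, 7.04 and 6.98 CPM in Control d14. ExpOF d14 mice had a lowest level of 3.28, a median of 5.06 and a highest of 6.05 CPM. Of the 6 ExpOF mice, 5 lay below every Control mouse, and the groups overlapped through 1 ExpOF mouse. The log2 fold change was -0.45 (SE 0.16, adjusted p = 0.137), and its size was -0.30 for the July mice and -0.59 for those of September, while the exact permutation test gave p = 0.0130. The ExpOF d14 mean of 4.84 ± 0.933 CPM (SD, n = 6) stood close to the means of both d14+3 groups, 4.40 ± 0.786 in Control and 4.37 ± 1.12 in ExpOF mice, while the Control d14 mean was 6.58 ± 0.715 (SD, n = 5).

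Ghr (chr15:3317760-3583492, minus strand), the receptor of growth hormone, had a mean of 25.3 ± 5.51 CPM (SD, n = 5) in Control d14 and 29.8 ± 4.32 (SD, n = 6) in ExpOF d14. The Control mice had 33.2, 26.3, 24.6, 17.7 and 24.5 CPM, and the ExpOF mice a lowest of 24.8, a median of 29.3 and a highest of 35.8 CPM. The groups overlapped widely. The log2 fold change of 0.24 had a 95% interval from -0.13 to 0.61 (adjusted p = 0.378).

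Among the peptide genes of the reproductive axis, Gnrh1 (chr14:67745181-67749353, plus strand) was measured at 2.84, 4.18, 3.52, 3.49 and 4.48 CPM in Control d14, and at a lowest of 1.996, a median of 2.94 and a highest of 3.89 CPM in ExpOF d14. The groups overlapped, and the log2 fold change was -0.34 (SE 0.17, adjusted p = 0.197). It was -0.56 among July mice and -0.052 among September mice. Tac2 (chr10:127724478-127731767, plus strand), the precursor of neurokinin B, had means of 35.5 ± 5.74 CPM (SD, n = 5) in Control d14 and 31.5 ± 1.71 (SD, n = 6) in ExpOF d14. Pdyn (chr2:129686565-129699833, minus strand), the dynorphin precursor, had 73.0 ± 7.92 and 64.3 ± 9.17 CPM in the same groups. Their log2 fold changes were -0.17 (SE 0.12) and -0.18 (SE 0.09), with adjusted p-values of 0.344 and 0.177, and the groups of both genes overlapped. The exact permutation test gave p = 0.145 for Tac2 and p = 0.121 for Pdyn.

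Pgr (chr9:8899833-8968611, plus strand), the progesterone receptor and a classical target of the estrogen receptor, had the smallest p-value of the members in edgeR's d14 test. Its level was 35.2, 22.3, 28.2, 20.6 and 24.1 CPM in Control d14. In ExpOF d14 the lowest value was 32.8, the median 34.8 and the highest 40.3 CPM. The 6 ExpOF mice lay above 4 of the 5 Control mice, and Control d14 replicate 1 alone reached into their range. The log2 fold change was 0.44 (SE 0.13, unadjusted p = 0.00263, adjusted p = 0.135) in edgeR's test and the exact permutation test gave p = 0.00866. July mice gave 0.53 and September mice 0.31, the latter with 2 Control mice, replicate 1 among them.

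Prlr (chr15:10177238-10348286, plus strand), the prolactin receptor, followed the same order: 51.2, 24.1, 38.0, 32.3 and 28.6 CPM in Control d14, and 41.7, 47.1 and 52.5 CPM as the lowest, median and highest of ExpOF d14. Control d14 replicate 1 again lay among the ExpOF mice. The log2 fold change of 0.44 (SE 0.19, adjusted p = 0.156) was 0.65 among July mice. It was 0.17 among September mice, where replicate 1 was among the 2 Control mice. The exact permutation test over both cohorts gave p = 0.0260. Prlr is also made in choroid plexus. Over the 23 libraries, with group means removed, Prlr and the mean of the choroid plexus markers had Pearson's r = -0.15 and Spearman's rho = -0.40 (permutation p = 0.491 and 0.0607), 1 of 8 relations computed. Esr1 (chr10:4611593-5005614, plus strand) was measured at 19.4, 12.7, 15.3, 11.2 and 15.4 CPM in Control d14 and at a lowest of 16.1, a median of 17.4 and a highest of 19.0 CPM in ExpOF d14. The means were 14.8 ± 3.12 (SD, n = 5) and 17.6 ± 1.07 CPM (SD, n = 6), with a log2 fold change of 0.25 (SE 0.14, adjusted p = 0.230) and overlapping groups.

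Control d14 replicate 1 stood at the edge of its group for 8 of the 9 members. It had the lowest Ghrh, Sst, Gnrh1 and Tac2 and the highest Ghr, Esr1, Pgr and Prlr of the 5 Control d14 mice, and no other library was at the edge of its group for more than 6 members. Without it, edgeR called 5 of 9 members on d14, where it called 22.0% of 19206 genes. Ghrh then had a log2 fold change of -0.50 (adjusted p = 0.0384), Sst -0.51 (0.0322), Esr1 0.37 (0.049998), Pgr 0.57 (0.01998) and Prlr 0.62 (0.0271). The calls of members on d14 therefore depended on this mouse. For those 8 members it stood at the edge on the ExpOF side, so leaving it out had to widen their differences. Its RIN in the labels was 8.6, against 8 for Control d14 replicate 5. That mouse had the lowest Ghr, Pdyn, Esr1 and Pgr of the group.

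**Figure D2:**
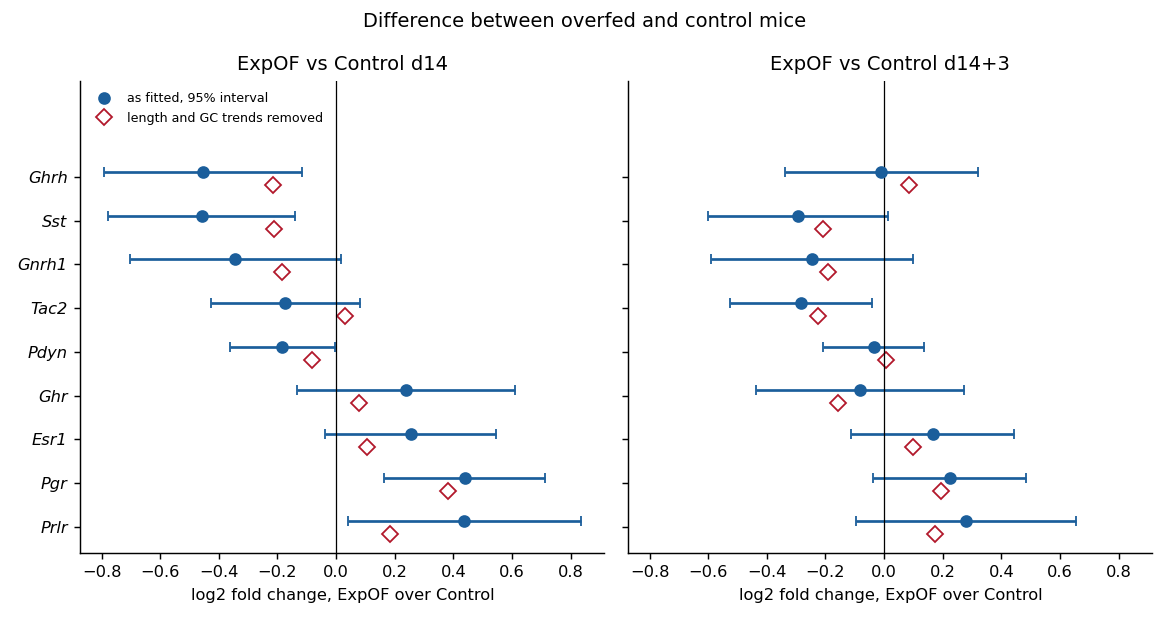
Fitted log2 fold change of ExpOF over Control mice (horizontal axes) for 9 genes, on d14 and on d14+3, with 95% intervals (filled circles), and the value after each library's trends with exon length and GC content were removed (open diamonds). On d14 the 5 peptide genes lie left of 0 and the 4 receptors right of it, and the diamonds lie closer to 0 than the circles for all 9 genes.

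At d14+3, after 3 days of water infusion in both groups, no member passed the adjusted threshold (0 of 9, with 0% of all genes called by edgeR), and DESeq2 called 0 of 9 where it called 0.29% of all genes. At an unadjusted p under 0.05 the test held 1 of 9 members, Tac2, against 7.11% of all genes. No member's groups were apart, as those of 0.421% of all genes were. Tac2 was measured at a lowest of 27.6, a median of 37.1 and a highest of 46.7 CPM in Control d14+3, and at 24.0, 30.9 and 35.0 CPM in ExpOF d14+3. Its log2 fold change was -0.28 (SE 0.12, unadjusted p = 0.0226, adjusted p = 0.613) in edgeR's test, and -0.32 and -0.24 in the July and September cohorts. The exact permutation test gave p = 0.0931 for Tac2.

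Ghrh had nearly the same level in both groups at d14+3, from 3.60 over a median of 4.14 to 5.83 CPM in Control and from 2.89 over 4.61 to 5.90 CPM in ExpOF mice, with a log2 fold change of -0.01 and a 95% interval from -0.34 to 0.32. Sst was measured at a lowest of 90.1, a median of 96.0 and a highest of 159 CPM in Control d14+3, and at 76.1, 83.2 and 131 CPM in ExpOF d14+3. Its groups overlapped: ExpOF replicates 5 and 6 had 131 and 97.5 CPM, above 4 and 3 of the Control mice, and 2 Control mice stood apart from the other 4 at 143 and 159 CPM. The log2 fold change of Sst was -0.29 (SE 0.15, adjusted p = 0.712). Gnrh1 had -0.25 (SE 0.17), which was -0.56 for July mice and 0.047 for September mice. Pdyn had -0.04 (SE 0.08) and Ghr -0.08 (SE 0.17). Pgr was measured at a lowest of 23.4, a median of 29.1 and a highest of 33.5 CPM in Control d14+3, and at 23.3, 32.7 and 40.9 CPM in ExpOF d14+3. Prlr had 23.9, 38.2 and 49.0 CPM in Control and 27.7, 45.2 and 53.6 CPM in ExpOF mice, and Esr1 10.1, 14.5 and 16.0 against 11.6, 15.6 and 21.0 CPM. ExpOF replicate 5 had the lowest Pgr and Prlr of its group and the highest Sst. The groups of all 3 receptors overlapped throughout. Their log2 fold changes had the sign seen on d14 with smaller values: Pgr 0.22 (SE 0.12), Prlr 0.28 (SE 0.18) and Esr1 0.17 (SE 0.13), with adjusted p-values of 0.744, 0.768 and 0.781.

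Every member but Ghr had the same sign on both days, although the d14+3 value of Ghrh was near 0. Averaged over the days, the log2 fold changes were 0.33 for Pgr (SE 0.09, adjusted p = 0.0594), -0.38 for Sst (SE 0.11, adjusted p = 0.0628), 0.36 for Prlr (SE 0.13, adjusted p = 0.0983) and -0.23 for Tac2 (SE 0.08, adjusted p = 0.0993). No member was called (0 of 9, against 0.569% of all genes), while 6 of 9 (Sst, Gnrh1, Tac2, Esr1, Pgr and Prlr) had an unadjusted p under 0.05, against 29.2% of all genes. These averages lay near the threshold, so the setting decided the call. DESeq2 called Sst (adjusted p = 0.0173) and Pgr (adjusted p = 0.0157) among 8.31% of all genes. With RIN as a covariate edgeR called Sst (-0.46, adjusted p = 0.0222), Pgr (0.38, adjusted p = 0.0317) and Prlr (0.51, adjusted p = 0.0350) among 11.0% of all genes. Without Control d14 replicate 1 it called 6 members (Sst, Gnrh1, Tac2, Esr1, Pgr and Prlr) among 22.6% of all genes, and without ExpOF d14+3 replicate 5 it called 4 (Sst, Tac2, Pgr and Prlr) among 15.7%. Leaving out Control d14+3 replicate 6 gave 2 calls (Sst and Pgr) among 3.05% of all genes. Leaving out Control d14 replicate 3 or Control d14+3 replicate 4 gave 1 (Sst), among 2.54% and 1.92%.

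Whether the effect of overfeeding differed between the days was tested as an interaction, and no member passed (0 of 9 at the adjusted threshold, where 0% of all genes passed; 0 of 9 at an unadjusted p under 0.05, against 4.42% of all genes). DESeq2 called 0 of 9 members and 0% of all genes. The widest difference between days was that of Ghrh, 0.45 on the log2 scale (SE 0.23, unadjusted p = 0.0599, adjusted p = 0.903). Its 95% interval ran from -0.03 to 0.92, so its values on d14 and d14+3 were not shown to differ. Between the September and July cohorts, with group and extraction round in the model, 0 of 9 members were called, with 0% of all genes. Pdyn alone had an unadjusted p under 0.05, as did 4.28% of all genes, with a log2 fold change of -0.17 (SE 0.05, unadjusted p = 0.00367, adjusted p = 1) of September over July.

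On d14 the direction of the members followed the length of their transcripts. Ghrh (668 exon bases), Sst (721), Gnrh1 (642), Tac2 (1378) and Pdyn (2887) are shorter than the receptor genes Pgr (8546), Ghr (9053), Esr1 (13661) and Prlr (15339). The same was seen over all genes: on d14 the median log2 fold change was -0.19 for 1509 genes under 1 kb, -0.20 for 2661 genes of 1 to 2 kb, -0.09 for 5854 genes of 2 to 4 kb, 0.02 for 6213 genes of 4 to 8 kb and 0.15 for 2755 genes over 8 kb, of which 83% were higher in ExpOF mice. At d14+3 these medians ran from -0.07 to 0.07. All 4 receptors lay among the genes over 8 kb, and their values of 0.24 to 0.44 on d14 were above that class's median of 0.15, as the values of Ghrh, Sst and Gnrh1 were below that of genes under 1 kb. The quartiles of genes over 8 kb were 0.047 and 0.258, with Ghr and Esr1 between them and Pgr and Prlr above. Those of genes under 1 kb were -0.452 and 0.151. Gnrh1 lay between them, and Ghrh (-0.454) and Sst (-0.458) lay just below the lower one.

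Removing each library's trend with exon length and GC content, a setting chosen after the data were seen, brought every member's d14 value closer to 0. Pgr kept the most, 0.38 against 0.44 (unadjusted p = 0.00264, adjusted p = 0.153, edgeR). Sst became -0.21, Ghrh -0.22, Gnrh1 -0.18, Prlr 0.18, Esr1 0.11, Ghr 0.08 and Pdyn -0.08, and Tac2 changed sign to 0.03. At d14+3 Tac2 kept -0.23 (unadjusted p = 0.0167, adjusted p = 0.503) and Sst -0.21. Averaged over days, Pgr had 0.29 (adjusted p = 0.0742) and Sst -0.21 (adjusted p = 0.138) in this fit, and no member was called. What part of each difference goes with length, with RNA quality or with the diet was not tested.

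**Figure D3:**
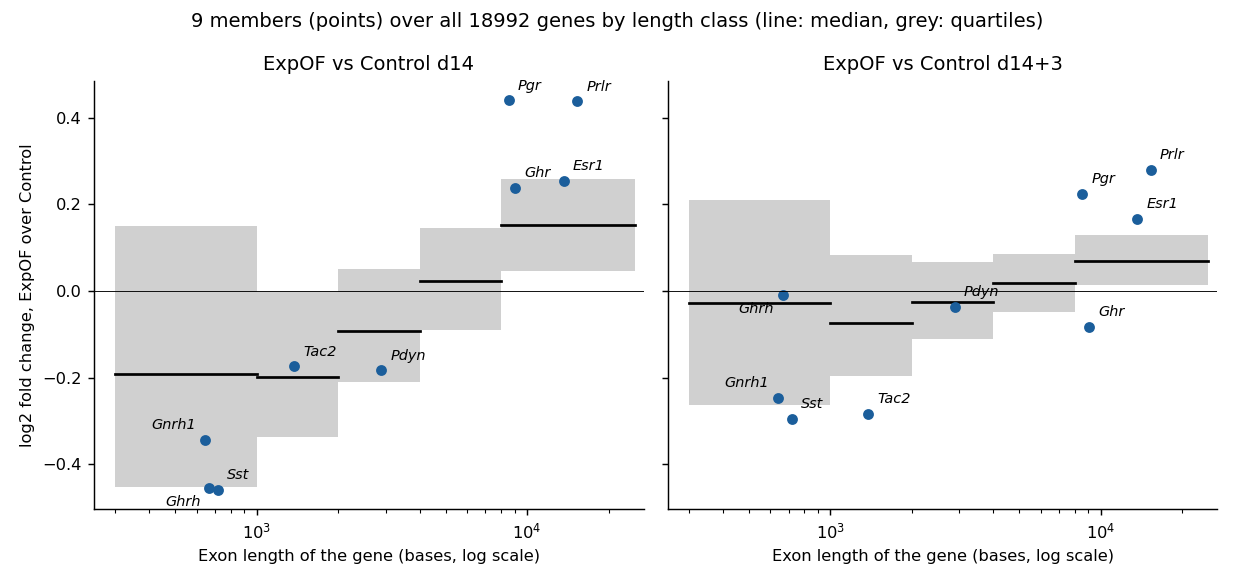
Log2 fold change of ExpOF over Control mice (vertical axes) against exon length in bases (horizontal axes, log scale) on d14 and d14+3. Points are the 9 genes, black lines the median and grey boxes the quartiles of all 18992 genes in 5 length classes. On d14 the class medians are -0.19 and -0.20 for the 2 shortest classes and climb to 0.15 for the longest genes. The 4 receptors lie above the median of their class, Ghr and Esr1 within its quartiles.

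The library that the study set aside lay farther from the ExpOF d14 mice than the other Control d14 mice did for 6 members. In Control d14 replicate 4, Sst reached 373 CPM against a highest of 176 in the 23 other libraries (all 24 normalized together), Ghrh 16.9 against 7.13, Gnrh1 10.7 against 4.41 and Tac2 77.6 against 46.4 CPM. Pgr stood at 10.7 CPM against a lowest of 20.7 elsewhere and Prlr at 19.1 against 23.7, while Ghr, Pdyn and Esr1 lay within the range of the others. Genes under 1 kb had a median log2 difference of 0.75 from the other Control d14 mice and genes over 8 kb one of -0.64. With this library in the fit, the d14 log2 fold changes became -0.80 for Sst, -0.74 for Ghrh, -0.67 for Gnrh1, -0.41 for Tac2 and 0.59 for Pgr, and no member was called.

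Other genes of the 2 axes gave no call either. Of 18 further genes of the growth hormone axis (receptors of the releasing factors, the insulin-like growth factor branch and the receptor's signalling chain), 16 were tested, with a median log2 fold change of 0.01 on d14 against -0.02 over all genes. In edgeR's test 0 passed the adjusted threshold, 3 were higher and 1 lower at an unadjusted p under 0.05, a share close to the 26.7% of all genes. The smallest p-values were those of Jak2, the kinase bound to the growth hormone receptor (log2 fold change 0.17, unadjusted p = 0.0189), the somatostatin receptor gene Sstr3 (-0.25, unadjusted p = 0.0225) and Stat5b, which carries the signal to the nucleus (0.11, unadjusted p = 0.0263), all on d14. At d14+3, 0 of the 16 had an unadjusted p under 0.05, against 7.11% of all genes.

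Of 15 further genes of the reproductive axis, 14 were tested and 0 called. At an unadjusted p under 0.05 there were 2 on d14 and 1 at d14+3, all higher in ExpOF mice, against 26.7% and 7.11% of all genes. The median log2 fold change was 0.10 on d14 and 0.12 at d14+3, against -0.02 and 0.01 over all genes. Greb1, a well-known estrogen-induced gene, had the smallest p-value, at d14+3, with 6.26 ± 1.14 CPM (SD, n = 6) in Control and 8.68 ± 1.6 (SD, n = 6) in ExpOF mice (log2 fold change 0.48, SE 0.15, adjusted p = 0.443, edgeR). On d14 it had 0.20 (SE 0.16). Oprk1, the receptor of dynorphin, had 24.2 ± 5.83 CPM (SD, n = 5) in Control d14 and 31.7 ± 2.80 (SD, n = 6) in ExpOF d14 (log2 fold change 0.39, SE 0.15, adjusted p = 0.141, edgeR). Tacr3, the receptor of neurokinin B, had a d14 log2 fold change of 0.30 (SE 0.13, adjusted p = 0.157). Both receptor genes had higher means on d14 and their ligand genes Pdyn and Tac2 lower ones, none past the threshold. With length and GC trends removed, Tac2 had 0.03 on d14 and the value of Pdyn shrank, as given above. A relation of the ligand genes to their receptor genes was not tested.

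**Figure D4:**
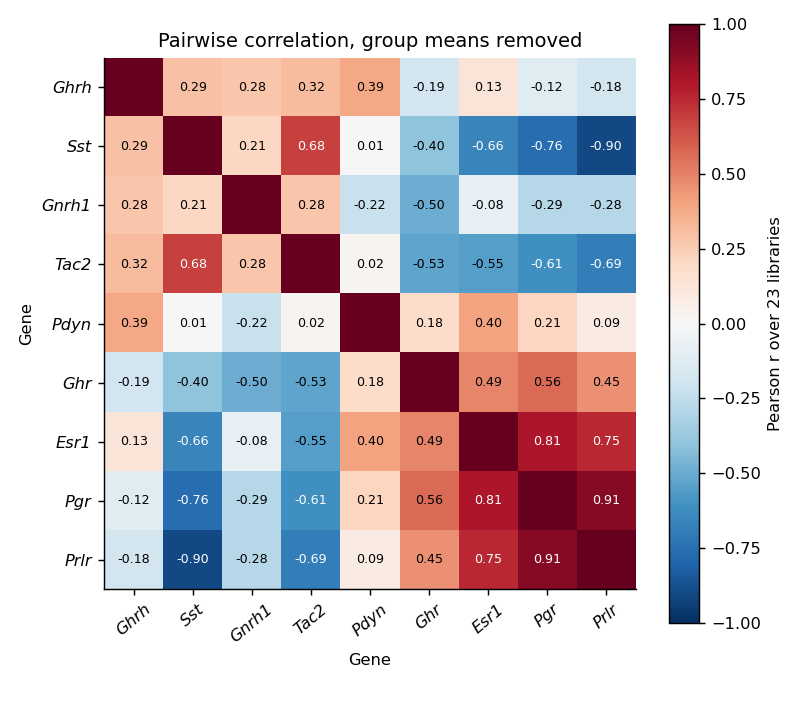
Pearson's r between each pair of the 9 genes over 23 libraries, on log2 CPM with the group means removed, on a colour scale from -1 to 1 and with the value in each cell (both axes list the genes). The 4 receptors at the lower right are positively related in all 6 pairs, and Sst and Tac2 are negatively related to each receptor.

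With group means removed, all 6 pairs of receptors were positively related over the 23 libraries, with r from 0.45 to 0.91, and 15 of the 20 pairs of a peptide gene and a receptor were negatively related, down to -0.90 for Sst and Prlr. The other 5 were the pairs of Pdyn with all 4 receptors (r from 0.09 to 0.40) and that of Ghrh with Esr1 (0.13). Pdyn had r near 0 with Sst (0.0064) and Tac2, -0.22 with Gnrh1 and 0.39 with Ghrh. Esr1 and Pgr had r = 0.81 and rho = 0.71 (permutation p = 3e-05 and 0.00022, the former 0.00012 after adjustment over the 8 pairs computed), and r was 0.71 among July mice, 0.88 among September mice and 0.83 without the 2 libraries farthest from the median of Esr1. Esr1 and Prlr had r = 0.75 and rho = 0.71 (permutation p = 2e-05 and 0.00023, the former adjusted 0.00012), with 0.68 and 0.84 within the cohorts. No background of r over all gene pairs was drawn, so these p-values do not show a relation particular to these receptors. The closest genes over the 23 libraries, given below, had r = 0.94 with Esr1 (Stx16) and 0.96 with Pgr (Ttbk2). All 4 receptors have over 8 kb of exons, and the part of length in these relations was not tested. Tac2 and Pdyn, which are made together in the arcuate kisspeptin neurons, had no relation past the threshold in this tissue (r = 0.02, rho = 0.13, permutation p = 0.915 and 0.563). Ghrh and Sst had r = 0.29 and rho = 0.35 (permutation p = 0.178 and 0.105), and r was 0.48 without the 2 libraries farthest from the median of Ghrh (permutation p = 0.0270), 0.23 among July mice and 0.37 among September mice.

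Pdyn was negatively related to the cortex and hippocampus markers (r = -0.51, rho = -0.52, permutation p = 0.0121 and 0.0119, the former adjusted 0.0324). Without the 2 libraries farthest from the median of Pdyn the pooled r was -0.32 and did not pass the threshold (permutation p = 0.162). Within the cohorts r was -0.73 in July (n = 12, permutation p = 0.00622) and -0.80 in September (n = 11, permutation p = 0.00322). Pdyn and the striatum markers had r = -0.19 and rho = -0.17 (permutation p = 0.390 and 0.428). Sst and the cortex and hippocampus markers had r = 0.23 and rho = 0.32 (permutation p = 0.296 and 0.130), and r was 0.48 without the 2 libraries farthest from the median of Sst (permutation p = 0.0253), 0.49 among July mice and 0.0071 among September mice. The libraries share their depth and RNA quality across all genes, and the relation of the members to either was not separated from these values.

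As a description of likeness over the 23 libraries, Pgr was closest to Ttbk2 (r = 0.96), Camta1 (0.96) and Hipk3 (0.96), Prlr to Plcxd2 (0.96), Plcxd3 (0.96) and Pdpk1 (0.96), and Esr1 to Stx16 (0.94), 3110039I08Rik (0.93) and AW551984 (0.93). Ghr was closest to Adamts12 (0.91), Ddr2 (0.88) and Col5a2 (0.88). Sst was closest to Ppp1r12c (0.94), Ppp1r37 (0.94) and Snrpa (0.93), Tac2 to Preb (0.86), Jagn1 (0.86) and Sbk1 (0.85), and Ghrh to Atn1 (0.79), Ring1 (0.78) and Mirg (0.77). Gnrh1, Ghrh and Pdyn had the loosest neighbours, Trdc (0.76), Gm10657 (0.71) and Ybx2 (0.66) for Gnrh1 and Gm44562 (0.78), Gm10710 (0.75) and Ctso (0.75) for Pdyn. The RIN in the labels had r = -0.40 with Prlr and 0.39 with Sst over the 23 libraries, and between -0.33 and 0.13 with the other members.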

How the data were processed

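Hypothalamic poly-A RNA of 24 mice, with a library for each mouse, was sequenced from both ends with a stranded kit. Read alignment was done by the authors with STAR on mm10, and counting on GENCODE vM22 genes with featureCounts 1.6.4. The deposited values are raw counts, not normalized; the strand setting is not given in the sources used here. Symbols, exons and overlaps were taken from GENCODE vM21 and promoters from RefSeq (GRCm38.p6). The 10 genes, the gene lists and the pairs were chosen with earlier results of these data known.

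Genes were tested with edgeR 4.0.16 (R 4.3.3). Counts were normalized by TMM and filtered with filterByExpr, which asks for at least 10 counts in enough libraries and 15 in all. The 4 groups entered a single robust quasi-likelihood model of 23 libraries, without Control d14 replicate 4, the library whose omission brings the mean normalized counts to within a median of 6.79e-05% of the authors' mean expression values (4.41% or more for any other Control d14 library). Benjamini-Hochberg adjustment ran over all 18992 genes tested, with a threshold of 0.05. CPM use the same TMM factors, and log2 CPM a prior count of 2. Exact permutation tests are two-sided and were not adjusted over members or genes. Correlations drew 100000 permutations. No libraries of a group were duplicates (chi-square per degree of freedom 2.85 or more over 60 pairs).

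The genes named are the 10 members, of each partner list the genes past the threshold or else the 3 with the smallest unadjusted p over both days, and for each member the 3 genes with the highest Pearson's r. Alternatives were DESeq2 1.42.0 and its size factors, 2 other filters, all 24 libraries, only the 2 groups compared, each cohort alone, covariates, a replicate block and each library left out. Offsets for each library's trends with exon length and GC content (spline degrees of freedom, 5) were chosen after seeing the data. The fits were tested on simulated data.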

Additional observations from a re-analysis of the deposited data

Results flagged for a closer look

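In Control d14 replicate 4, the library set aside by the study for RNA quality (RIN 9.8 in the labels) and left out of the 23-library fit, 4 peptide genes stood above the levels in all 23 other libraries: Ghrh at 16.9 CPM (highest elsewhere 7.13), Sst at 373 CPM (176), Gnrh1 at 10.7 CPM (4.41) and Tac2 at 77.6 CPM (46.4). In the 36 combinations of gene and group tested, 0 samples lay apart from the rest of their group by Dixon's criterion, where chance would mark about 5%.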

How the results depend on the processing

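Most values kept their direction and their side of the threshold: 436 of 460 fitted log2 fold changes under a changed setting and 825 of 851 with a library left out. No member was called in the main fit, and the 851 include libraries left out on the other day. Of the exact tests 40 of 54 kept both, and of the correlations 25 of 32. In 4 exact tests the sign changed. In 8 the p-value rose past 0.05, all within a single cohort, where the smallest possible p is 0.1. Leaving out each library in turn gave 0 to 5 members called on d14, 0 to 6 averaged over days, and 0 in every fit at d14+3 and for the interaction. Averaged over days, DESeq2 called 2 members and the fit with RIN as a covariate 3. Gene counts called moved more, from 1 to 166 on d14 and from 0 to 55 at d14+3 with DESeq2. Without Control d14 replicate 1, edgeR called 4220 genes on d14 and 4339 averaged over days, against 1 and 108 in the main fit.

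Replicate numbers did not pair the mice (correlation of same-numbered libraries from -0.21 to 0.22, over 0.1 in 2 of 11 pairs), and with a replicate block 0 members were called in each comparison; the block also holds the extraction round.

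All reversals were of uncalled values, and their cause was not tested. With length and GC trends removed, Tac2 had 0.031 on d14, Ghrh 0.083 and Pdyn 0.0047 at d14+3, Ghr -0.039 averaged over days and Gnrh1 -0.0097 for the interaction. With all 24 libraries and the trends removed, Ghr had -0.067 on d14 and -0.11 averaged, Ghrh 0.087 and Pdyn 0.0033 at d14+3, and Esr1 0.052 and Prlr 0.0071 for the interaction. With all 24 libraries, Tac2 had 0.12 for the interaction. In the September cohort at d14+3, fitted values were 0.12 for Ghrh, 0.047 for Gnrh1 and 0.049 for Pdyn, and differences of mean log2 CPM were 0.11, 0.055 and 0.055; Ghr averaged -0.037 and Prlr had 0.0049 for the interaction. In the July cohort Ghr had 0.14 at d14+3, and 0.14 as a difference of mean log2 CPM. With RIN as a covariate Ghrh had 0.0034 at d14+3. The correlation of Tac2 and Pdyn was -0.094 in July, -0.20 in September and -0.0050 over 24 libraries. With a library left out, Ghrh ran from -0.11 to 0.091, Ghr from -0.19 to 0.018 and Pdyn from -0.063 to 0.0058 at d14+3, and Gnrh1 from -0.0022 to 0.19 for the interaction.

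Counting error limits Gnrh1 and Ghrh most, with as few as 22 and 46 counts in a library. The 4 group means that moved by more than the SD were those of Ghrh, Sst, Gnrh1 and Tac2 in Control d14 with replicate 4 included.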

Other observations

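No test compared the sampling days, and the levels of Pdyn and Ghrh on each are given here as values. Pdyn had 73.0 ± 7.92 CPM (SD, n = 5) in Control d14 and 54.8 ± 5.08 (SD, n = 6) in Control d14+3, and 64.3 ± 9.17 and 53.5 ± 2.91 CPM (SD, n = 6 each) in the ExpOF groups. Ghrh had 6.58 ± 0.715 CPM (SD, n = 5) in Control d14 and 4.40 ± 0.786 (SD, n = 6) in Control d14+3. The ExpOF means on d14 and d14+3 were 4.84 ± 0.933 and 4.37 ± 1.12 CPM (SD, n = 6 each), each within the SD of the other. The summed level of the 10 hypothalamic regulators ranged from 90.7 to 127 CPM in Control d14 and from 79.3 to 109 in Control d14+3, and that of 6 thalamus markers from 73.8 to 374 and from 263 to 640. The part of the dissected region in these values was not tested.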
